A study of Mus musculus with 6 samples.

Results

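The core binding factor and ETO family comprised 7 of the 54532 genes in the expression table of mouse AML cells, taken by gene name: *Runx1*, *Runx2*, *Runx3*, *Cbfb*, *Runx1t1*, *Cbfa2t2* and *Cbfa2t3*. RNA came from GFP+ leukemia cells sorted from mouse bone marrow, with 3 *WT Phf6,RE9a* libraries, numbered 1, 2 and 3, against 3 *VC Phf6,RE9a* libraries, numbered 11, 12 and 13. In all 6 libraries the leukemia had been started by a retrovirus that carries RUNX1-ETO9a and GFP, introduced into mid-gestation fetal liver cells and passed serially through male recipients, and the donors were males with a floxed *Phf6* allele. *VC Phf6,RE9a* cells also carried Vav1-Cre, which is active in blood cells and deletes *Phf6* there, whereas *WT Phf6,RE9a* cells had the genotype *Phf6* fl/y without Cre. The labels do not give the passage of the sequenced cells or say whether the libraries of a group came from different leukemias, so p-values measure the spread between these libraries, which may be technical.

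Core binding factor is a heterodimer. RUNX1, RUNX2 and RUNX3 bind DNA through their Runt domain, and CBFβ, encoded by *Cbfb*, binds no DNA itself but raises the affinity of the RUNX subunit for its site. RUNX1 is needed for the emergence of blood stem cells and for myeloid, lymphoid and megakaryocyte maturation, RUNX2 for bone formation, and RUNX3 for T cell, NK cell and dendritic cell development. The ETO proteins (RUNX1T1, also called ETO or MTG8, with CBFA2T2 or MTGR1, and CBFA2T3 or ETO2) are corepressors that bind no DNA by themselves and bring NCoR, SMRT and histone deacetylases to transcription factors. The fusion that drives these leukemias joins the Runt domain of RUNX1 to a shortened ETO. The counts are per gene, and it is not given whether reads of the viral transcript were assigned to *Runx1* or *Runx1t1*, so transcripts of these mouse genes and of the fusion cannot be told apart here.

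The 3 RUNX genes share a promoter sequence. In the RefSeq promoters of GRCm38.p6, each 250 bases before to 50 after a start site, 6 of the 7 genes had an entry, with 9 promoters in all, and *Runx1t1* had none. The longest run of bases common to the distal promoters of *Runx1* and *Runx3* and the only listed promoter of *Runx2* was 18 bases long and held the RUNX motif 2 times in tandem, as ACCACA, the complement of TGTGGT. These lines show the run, in capitals, within 30 bases of the coding strand of each gene, because it is the sequence feature by which the RUNX genes stand together.
Runx1: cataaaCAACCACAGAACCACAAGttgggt
Runx2: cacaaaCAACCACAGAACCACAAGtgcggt
Runx3: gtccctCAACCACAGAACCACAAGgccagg
The 3 stretches lie at chr16:92826025-92826054 (minus strand), chr17:44814583-44814612 (minus strand) and chr4:135120503-135120532 (plus strand). The run began 26 bases after the start site in *Runx1*, 21 bases after it in *Runx2* and 136 bases before it in *Runx3*. Of 32851 promoters of that length, 4 (0.0122%) held the run on either strand, and the promoter beside those of *Runx1*, *Runx2* and *Runx3* was that of *Gm16225*, which overlaps the *Runx3* promoter on the opposite strand. The run was taken from the *Runx1*, *Runx2* and *Runx3* promoters themselves, so this count is not separate support for it. TGTGGT or TGCGGT on either strand, the motif searched, occurred in 22.4% of all promoters and in 4 of the 9 promoters of these genes. Those were the distal promoters of *Runx1* and *Runx3*, the *Runx2* promoter, which held 4 motifs in all, and the distal promoter of *Cbfa2t3*. The promoters of *Cbfb* and *Cbfa2t2* and the proximal promoters of *Runx1*, *Runx3* and *Cbfa2t3* held none of these letters in this window. The motif is a match of letters, and neither binding nor the start site in use was measured.

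The coding exons of the paralogs were compared, because reads can be shared only where genes are alike. Only coding exons of equal length in all genes of a family were searched, at matching positions, so closer matches elsewhere are not covered. The most alike stretch of 90 bases found in this way, without gaps, is shown from the GENCODE M21 transcripts. For the RUNX genes it lies in a coding exon of 157 bases, at chr16:92689004-92689093 (minus strand), chr17:44724773-44724862 (minus strand) and chr4:135155321-135155410 (plus strand) of GRCm38. Capitals mark bases that differ from *Runx1*.
Runx1: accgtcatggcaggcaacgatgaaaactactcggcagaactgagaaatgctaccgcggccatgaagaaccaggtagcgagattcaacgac
Runx2: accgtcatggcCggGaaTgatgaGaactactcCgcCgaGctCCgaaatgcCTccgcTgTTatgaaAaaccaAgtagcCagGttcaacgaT
Runx3: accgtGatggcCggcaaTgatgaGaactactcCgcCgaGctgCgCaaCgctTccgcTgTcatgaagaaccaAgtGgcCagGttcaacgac
Of 90 bases, 19 differed in *Runx2* (78.9% identity) and 17 in *Runx3* (81.1% identity). For the ETO genes it lies in a coding exon of 242 bases, at chr4:13837873-13837962 (plus strand), chr2:154504666-154504755 (plus strand) and chr8:122643331-122643420 (minus strand), and capitals mark bases that differ from *Runx1t1*.
Runx1t1: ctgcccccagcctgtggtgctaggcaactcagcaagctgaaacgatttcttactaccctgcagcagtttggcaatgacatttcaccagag
Cbfa2t2: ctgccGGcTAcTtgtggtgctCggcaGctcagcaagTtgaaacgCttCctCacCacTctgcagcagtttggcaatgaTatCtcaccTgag
Cbfa2t3: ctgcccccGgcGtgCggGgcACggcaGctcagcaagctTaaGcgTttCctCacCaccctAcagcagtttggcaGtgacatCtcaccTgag
Here 16 bases differed in *Cbfa2t2* and 17 in *Cbfa2t3*. Over all annotated transcripts the longest identical run between any 2 genes of a family was 38 bases, between *Runx1* and *Runx3*, and no pair shared a run of 50 bases (0 of them in each of the 6 pairs). The read length that the paper gives is longer than these runs, and the assignment of reads was not tested. Antisense genes overlapped the exons of 3 members by 106 bases (*Gm26626*, *Runx1*), 519 bases (*Runx2os1*, *Runx2*) and 295 bases (*Gm10612*, *Cbfa2t3*). Their mean counts per library were 135, 1.67 and 30.5, well under those of the members, and strand was not given for the counting.

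Total counts ran from 15675358 to 16817994 per library. *Phf6*, the targeted gene, was lower where Cre was present (log2 fold change -1.66 with a standard error of 0.13, edgeR adjusted p = 9.32e-05), and its remaining reads were not resolved by exon. With an adjusted p under 0.05 as the threshold, edgeR's quasi-likelihood test called 44.2% of the 14169 genes tested, 21.5% higher and 22.7% lower in *VC Phf6,RE9a* cells, and the groups did not overlap for 57.3%. All 10 markers of myeloid progenitors were read at over 3 counts in some library. Their summed level ran from 2601 to 3939 CPM (counts relative to the TMM-scaled library total) in *WT Phf6,RE9a* and from 775 to 1015 CPM in *VC Phf6,RE9a* libraries. However, 5 of these genes were higher and 3 lower in the latter. The lower ones were *Kit* (mean 2420 against 273 CPM), *Cd34* (383 against 15.5 CPM) and *Myb* (338 against 264 CPM). Mast cell and basophil markers (10 of 10 read) summed to between 17222 and 27340 CPM in *WT Phf6,RE9a* and between 4698 and 5175 CPM in *VC Phf6,RE9a* libraries. Granulocyte and monocyte markers (12 of 12 read) had a higher sum in *VC Phf6,RE9a* cells (1056 to 3890 CPM against 304 to 610 CPM), with 11 of them higher and *Fcgr3* lower. Erythroid markers (9 of 9 read) also had a higher sum there (5269 to 6250 CPM against 1498 to 2274 CPM), with all 9 higher. In bulk RNA, fewer cells of a type and less RNA per cell cannot be told apart.

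All 7 members passed the filter on low counts, with 209 to 14339 counts in any library. At an adjusted p under 0.05 over all genes tested, *Runx2*, *Runx3* and *Cbfb* were lower and *Runx1t1* was higher in *VC Phf6,RE9a* cells, which is 4 of 7 (57.1%) beside 44.2% of all genes. The median log2 fold change of the members was -0.27, beside 0.013 for all genes tested. The RUNX genes and *Cbfb* had negative values, and the 3 ETO genes had positive ones. *Runx1*, *Cbfa2t2* and *Cbfa2t3* did not pass the threshold, so *Runx1t1* was the only ETO gene with a called direction. The value for *Cbfa2t3* turned to -0.059 without *WT Phf6,RE9a* replicate 2. Since 44.2% of all genes were called, the number of members called is not in itself particular to them. The groups did not overlap for 5 of 7 members (71.4%), beside 57.3% of all genes tested, so lack of overlap is not particular to them either.

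**Figure D1:**
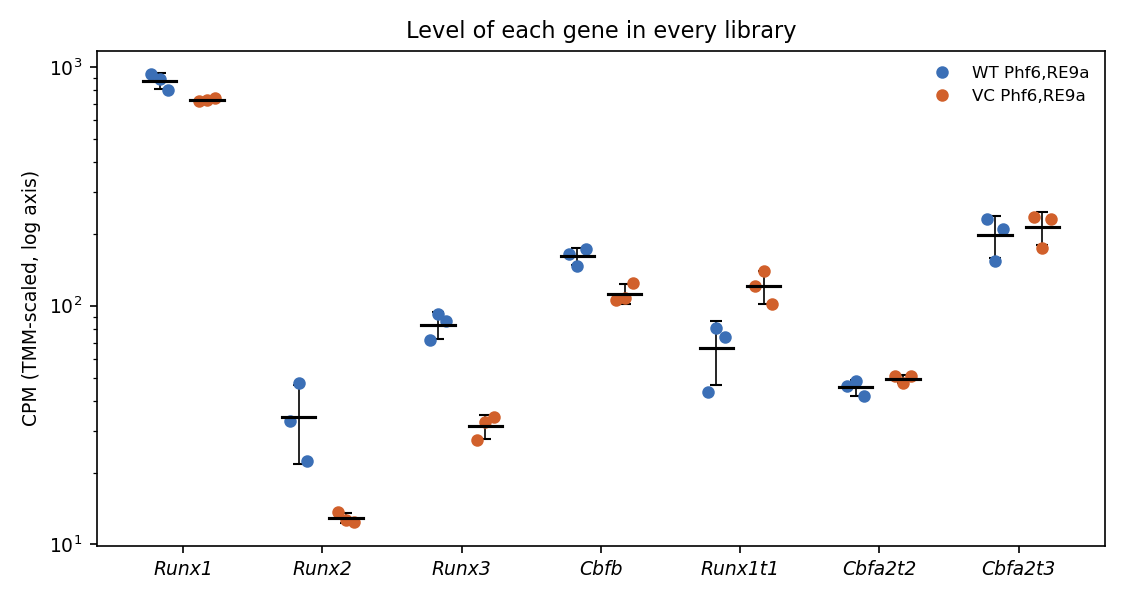
Level of the 7 genes in each of the 6 libraries, in TMM-scaled CPM on a log axis. Points are libraries, horizontal bars are group means and error bars are SD (n = 3). The groups are apart for *Runx1*, *Runx2*, *Runx3*, *Cbfb* and *Runx1t1* (71.4% of the 7 genes, beside 57.3% of all genes tested) and overlap for *Cbfa2t2* and *Cbfa2t3*.

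*Runx3* (ENSMUSG00000070691, chromosome 4 of GRCm38, 135120652 to 135177990) had the largest fitted log2 fold change of the family, close to that of *Runx2*. The *WT Phf6,RE9a* libraries held it at 71.6, 92.5 and 85.9 CPM, against 27.3, 32.5 and 34.3 CPM in the *VC Phf6,RE9a* libraries. All *VC Phf6,RE9a* libraries lay far under the lowest *WT Phf6,RE9a* library, and the groups did not overlap. The mean went from 83.3 ± 10.7 to 31.4 ± 3.61 CPM (SD, n = 3), and the log2 fold change was -1.41 with a standard error of 0.13 (edgeR adjusted p = 0.000189), or 2.65-fold lower. With each library left out in turn the log2 fold change stayed between -1.51 and -1.31.

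*Runx2* (ENSMUSG00000039153, chromosome 17, 44495987 to 44814797) is the RUNX gene best known from osteoblasts and was the least expressed member. The *WT Phf6,RE9a* libraries held it at 32.8, 47.3 and 22.5 CPM, against 13.6, 12.7 and 12.4 CPM in the *VC Phf6,RE9a* libraries. The *WT Phf6,RE9a* libraries were spread over a wide range and the *VC Phf6,RE9a* libraries lay close together under them. The mean went from 34.2 ± 12.5 to 12.9 ± 0.639 CPM (SD, n = 3), and the log2 fold change was -1.40 with a standard error of 0.25 (edgeR adjusted p = 0.00354), or 2.64-fold lower. The log2 fold change was -1.11 without *WT Phf6,RE9a* replicate 2 and at its largest -1.64 with another library left out, and it passed the threshold each time. Osteoblast and stromal markers, 4 of 5 of which were read, summed to between 0.950 and 1.30 CPM in *WT Phf6,RE9a* and between 4.16 and 4.89 CPM in *VC Phf6,RE9a* libraries, with *Sp7* at 0 in all libraries. Of these markers only *Cxcl12* had enough counts to be tested. Its mean went from 0.612 to 3.41 CPM (log2 fold change 2.45, edgeR adjusted p = 0.00235). *Col1a1*, *Col1a2* and *Bglap* had at most 18, 8 and 6 counts in any library.

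*Runx1* (ENSMUSG00000022952, chromosome 16, 92601466 to 92826149), the RUNX subunit of blood stem and progenitor cells and the N-terminal partner in the fusion, was the most expressed member. Its level reached 931, 891 and 803 CPM in the *WT Phf6,RE9a* libraries, against 716, 724 and 739 CPM in the *VC Phf6,RE9a* libraries. All *VC Phf6,RE9a* libraries lay under all *WT Phf6,RE9a* libraries, with a narrow gap. The mean went from 875 ± 65.3 to 726 ± 11.3 CPM (SD, n = 3), and the log2 fold change was -0.27 with a standard error of 0.097, short of the threshold (edgeR adjusted p = 0.0547). The 95% confidence interval of the log2 fold change, from -0.49 to -0.044, is not adjusted for the number of genes. *Runx1* passed the threshold with DESeq2 (adjusted p = 0.0107) and with limma on log2(FPKM + 1) (adjusted p = 0.0319), so its call depends on the tool.

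*Cbfb* (ENSMUSG00000031885, chromosome 8, 105170674 to 105217989), the shared partner of all RUNX proteins, fell. Without Cre it stood at 165, 147 and 172 CPM, against 105, 107 and 125 CPM with Vav1-Cre. The groups did not overlap. The mean went from 161 ± 13.1 to 112 ± 10.6 CPM (SD, n = 3), and the log2 fold change was -0.52 with a standard error of 0.10 (edgeR adjusted p = 0.00500), or 1.43-fold lower.

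*Runx1t1* (ENSMUSG00000006586, chromosome 4, 13743436 to 13893649), the mouse gene of the C-terminal fusion partner ETO, was the member that rose. Its counts came to 43.7, 80.7 and 74.3 CPM without Cre, against 121, 140 and 101 CPM with Vav1-Cre. The lowest *VC Phf6,RE9a* library lay above the highest *WT Phf6,RE9a* library, and *WT Phf6,RE9a* replicate 1 lay well under the other libraries. The mean went from 66.2 ± 19.8 to 121 ± 19.2 CPM (SD, n = 3), and the log2 fold change was 0.86 with a standard error of 0.23 (edgeR adjusted p = 0.0170), or 1.82-fold higher. The call was lost without *VC Phf6,RE9a* replicate 12 (log2 fold change 0.75, adjusted p = 0.0614).

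*Cbfa2t3* (ENSMUSG00000006362, chromosome 8, 122625141 to 122699109) encodes ETO2, a corepressor in complexes with TAL1, LMO2, LDB1 and GATA factors. The *WT Phf6,RE9a* libraries held it at 231, 154 and 209 CPM, against 234, 175 and 230 CPM in the *VC Phf6,RE9a* libraries. The groups overlapped over most of their range, with a log2 fold change of 0.10 (95% confidence interval -0.30 to 0.50, edgeR adjusted p = 0.660). *Cbfa2t2* (ENSMUSG00000038533, chromosome 2, 154436481 to 154539356), the third ETO gene, stood at 46.2, 48.6 and 41.7 CPM without Cre, against 50.7, 47.3 and 50.6 CPM with it. These groups also overlapped, with a log2 fold change of 0.12 (95% confidence interval -0.094 to 0.34, adjusted p = 0.322). The intervals do not reach a 2-fold change in either gene, and they leave room for smaller ones.

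**Figure D2:**
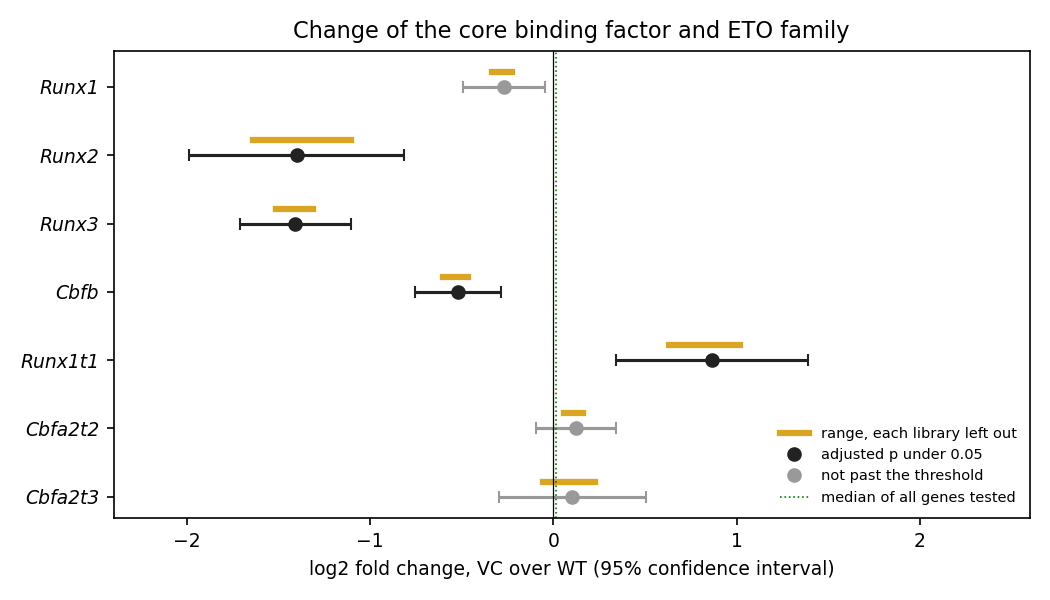
Log2 fold change of the 7 genes, *VC Phf6,RE9a* relative to *WT Phf6,RE9a*, with the 95% confidence interval from edgeR (not adjusted for the number of genes) and, above it, the range over the fits that each left out 1 library. *Runx2* and *Runx3* lie near -1.4, *Cbfb* at -0.52 and *Runx1t1* at 0.86, and the dotted line is the median of all genes tested, 0.013.

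Levels of different genes were compared per length, in the deposited FPKM. In *WT Phf6,RE9a* cells the order was *Runx1* (72.3 ± 5.76), *Cbfb* (46.0 ± 3.73), *Cbfa2t3* (23.6 ± 4.80), *Runx3* (16.5 ± 2.05), *Runx1t1* (8.26 ± 2.43), *Cbfa2t2* (5.23 ± 0.413) and *Runx2* (3.84 ± 1.40 FPKM, SD, n = 3). Neighbours in this order overlapped between *Cbfa2t3* and *Runx3*, between *Runx1t1* and *Cbfa2t2*, and between *Cbfa2t2* and *Runx2*. In *VC Phf6,RE9a* cells *Runx1t1* (15.0 ± 2.46 FPKM) stood above *Runx3* (6.19 ± 0.704 FPKM), and these genes did not overlap in either group. *Runx3* and *Cbfa2t2* overlapped there, and *Runx2* was last at 1.44 ± 0.0733 FPKM (SD, n = 3). The deposited lengths count every annotated exon, which lowers genes with long minor transcripts. Per kilobase of the principal transcript, *Runx1t1* (20.0 ± 5.96 CPM per kb) and *Runx3* (21.5 ± 2.75 CPM per kb) overlapped in *WT Phf6,RE9a* cells, and *Runx1t1* (36.3 ± 5.78 CPM per kb) came above *Runx3* (8.08 ± 0.929 CPM per kb) in *VC Phf6,RE9a* cells.

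The make-up of the summed RUNX level differed between the groups. Any reads of the viral transcript that were assigned to *Runx1* are part of this level and cannot be told apart. The summed FPKM of *Runx1*, *Runx2* and *Runx3* ran from 85.6 to 97.1 in *WT Phf6,RE9a* and from 65.7 to 68.4 in *VC Phf6,RE9a* libraries. *Runx1* made up 78.0% ± 2.81 of this sum in *WT Phf6,RE9a* cells, against 88.7% ± 0.713 in *VC Phf6,RE9a* cells (SD, n = 3). The share of *Runx3* went from 17.9% ± 2.57 to 9.19% ± 0.866 and that of *Runx2* from 4.10% ± 1.28 to 2.15% ± 0.155 (SD, n = 3). None of the 3 shares overlapped between the groups, which gives p = 0.1 for each in an exact 2-sided permutation test, the smallest value that 3 against 3 libraries allow. These shares follow from the changes given above and are not a further test of them.

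The ratio of *Cbfb* to the RUNX sum overlapped between the groups. Any viral reads assigned to *Runx1* or *Runx1t1* are part of this ratio and of the ETO shares below. *Cbfb* FPKM was 0.499 ± 0.0704 of the summed RUNX FPKM in *WT Phf6,RE9a* cells, against 0.473 ± 0.0347 in *VC Phf6,RE9a* cells (SD, n = 3, exact 2-sided permutation p = 0.7), with values from 0.430 to 0.571 and from 0.453 to 0.514. In the ETO family the summed FPKM ran from 33.9 to 38.7 in *WT Phf6,RE9a* and from 43.6 to 48.4 in *VC Phf6,RE9a* libraries. *Runx1t1* made up 22.6% ± 7.77 of it in *WT Phf6,RE9a* cells, against 32.8% ± 6.36 in *VC Phf6,RE9a* cells (SD, n = 3), and the groups overlapped (exact 2-sided permutation p = 0.2). The difference of 10.3 percentage points in the *Runx1t1* share fell to 6.10 when *WT Phf6,RE9a* replicate 1 was left out and to 6.72 when *VC Phf6,RE9a* replicate 12 was. *Cbfa2t3* made up 63.2% ± 8.99 and 54.8% ± 6.34 (SD, n = 3, exact 2-sided permutation p = 0.3), and its difference of -8.42 percentage points was -4.10 and -4.84 without those libraries and -13.1 without *WT Phf6,RE9a* replicate 2. Which ETO gene had the largest share in *VC Phf6,RE9a* cells depended on the length used. It was *Cbfa2t3* with the deposited lengths and *Runx1t1* with principal transcript lengths, where *Runx1t1* made up 50.1% ± 6.95 and *Cbfa2t3* 38.6% ± 6.33 (SD, n = 3).

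**Figure D3:**
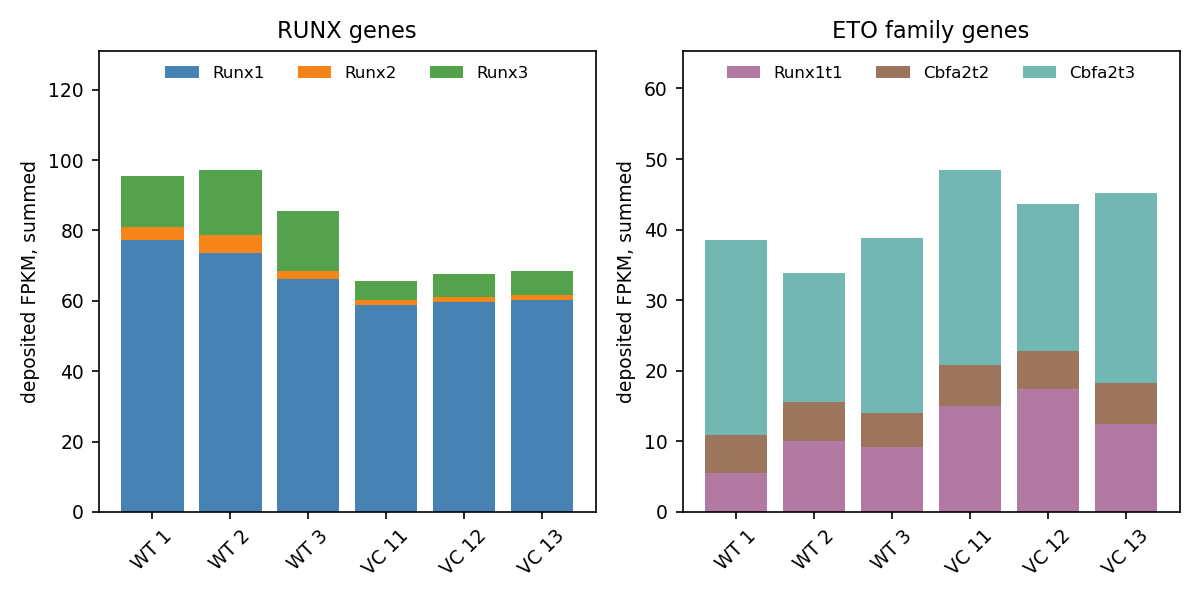
Deposited FPKM of the RUNX genes (left) and of the ETO family genes (right), stacked by gene in each of the 6 libraries. The RUNX sum lies between 85.6 and 97.1 in *WT Phf6,RE9a* and between 65.7 and 68.4 in *VC Phf6,RE9a* libraries, and the ETO sum between 33.9 and 38.7 and between 43.6 and 48.4.

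Genes whose profile over the 6 libraries was most like that of *Runx3* were ranked among 9042 genes with a mean of at least 10 CPM, by the root mean square difference of log2 CPM after the mean of each gene was removed. The nearest was the lincRNA *Dubr* (0.077), followed by *Nucb1*, a calcium-binding protein of the Golgi (0.12), and *C920009B18Rik* (0.13). *Dubr* had 40.4, 51.2 and 45.1 CPM in the *WT Phf6,RE9a* group and a log2 fold change of -1.28. Like *Runx3* it was lowest in replicate 1 of that group and in replicate 11 of the other. These genes were picked for a like profile, so the shared order is not separate support for a link between them.

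The corepressor complex that ETO proteins recruit was compared next. Of 10 genes tested, 2 passed the edgeR threshold as higher and 2 as lower with Vav1-Cre (40.0% beside 44.2% of all genes), and their median log2 fold change was 0.0071. *Gps2*, a subunit of the NCoR complex, rose from 56.1 ± 5.31 to 86.8 ± 5.44 CPM (SD, n = 3, log2 fold change 0.63, edgeR adjusted p = 0.00190). The deacetylase gene *Hdac1* rose by less (log2 fold change 0.29, adjusted p = 0.0203), and no longer passed in 4 of the 6 fits without a single library. *Tbl1x* and *Tbl1xr1*, which encode related WD40 subunits of the complex, fell (log2 fold change -0.51 and -0.40, edgeR adjusted p = 0.00251 and 0.0120). The call of *Tbl1xr1* was lost without *VC Phf6,RE9a* replicate 11 (adjusted p = 0.0606), and the number of genes called was then 2. *Ncor1*, the most expressed of them, had 432 ± 29.6 and 380 ± 20.4 CPM (SD, n = 3), and *Hdac3* had 58.6 ± 5.66 and 66.9 ± 2.44 CPM (SD, n = 3), and neither passed.

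Among cofactors of RUNX proteins, 1 of 12 genes tested was higher and 3 were lower (33.3% beside 44.2% of all genes), with a median log2 fold change of -0.084. The acetyltransferase gene *Ep300* rose (log2 fold change 0.36 with a standard error of 0.083, edgeR adjusted p = 0.00944) and its paralog *Crebbp* fell (log2 fold change -0.44 with a standard error of 0.11, edgeR adjusted p = 0.0146), a call that was lost without *VC Phf6,RE9a* replicate 11 (adjusted p = 0.0628). *Tle3*, a Groucho corepressor, fell from 184 ± 25.1 to 122 ± 5.98 CPM and *Elf4*, an ETS factor, from 213 ± 6.62 to 146 ± 15.6 CPM (SD, n = 3). *Hipk2*, a kinase that acts on RUNX1 and p300, had 188 ± 19.3 and 211 ± 16.8 CPM (SD, n = 3) and did not pass.

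Factors that bind DNA or bridge it together with RUNX1 or ETO2 moved in both directions. Of 14 genes tested, 6 were higher and 5 lower (78.6% beside 44.2% of all genes), with a median log2 fold change of 0.16. The list was chosen with earlier results of these data known, so its share is not support for a change particular to such factors. *Erg* and *Fli1*, ETS factors that occupy blood stem cell enhancers together with RUNX1, fell (log2 fold change -2.13 and -1.03, edgeR adjusted p = 0.000156 and 0.000158). *Erg* went from 43.5 ± 5.12 to 9.94 ± 2.40 CPM (SD, n = 3). *Lmo2*, the bridging protein of the TAL1 complex, rose from 90.4 ± 16.9 to 332 ± 20.7 CPM (SD, n = 3), and the log2 fold change was 1.88. *Gata2*, which is also on the mast cell marker list, was the most expressed and fell from 1401 ± 225 to 859 ± 122 CPM (SD, n = 3). *Tal1* had 407 ± 23.2 and 347 ± 17.9 CPM (SD, n = 3) and an adjusted p of 0.0694.
The E protein gene *Tcf4* had 8 to 39 counts in *WT Phf6,RE9a* and 550 to 769 counts in *VC Phf6,RE9a* libraries (log2 fold change 5.03 with a standard error of 0.45, edgeR adjusted p = 0.000158). Without *WT Phf6,RE9a* replicate 3 the log2 fold change was 5.97. *Tcf4* is also 1 of the 5 markers listed for plasmacytoid dendritic cells. Without *Tcf4* these markers summed to between 3.53 and 5.57 CPM in *WT Phf6,RE9a* libraries, against 4.40 to 8.38 CPM in *VC Phf6,RE9a* libraries, which overlap, and *Siglech* and *Ccr9* did not pass the threshold (edgeR adjusted p = 0.0768 and 0.822). B cell markers summed to between 0.611 and 1.10 CPM in *WT Phf6,RE9a* and between 9.03 and 26.9 CPM in *VC Phf6,RE9a* libraries, with all 4 tested genes higher. The part of either cell type in the *Tcf4* result was not tested.

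Genes known as RUNX targets in blood cells moved in both directions. Of 14 genes, 12 had enough counts, and 7 were higher and 3 lower (83.3% beside 44.2% of all genes, of which 21.5% were higher and 22.7% lower), with a median log2 fold change of 1.59. This list too was chosen with earlier results of these data known, so its share is not support for a change particular to RUNX targets. Of these genes, *Mpo*, *Elane*, *Prtn3*, *Cebpa* and *Spi1* are also on the myeloid progenitor marker list and *Csf3r* on the granulocyte and monocyte list, and all of them but *Spi1* are among the 7 that were higher. *Csf2* and *Il3* were not tested, with at most 7 and 4 counts in any library. *Csf3r*, the G-CSF receptor, and *Cebpe*, a factor of late granulocyte maturation, rose (log2 fold change 3.26 for each, edgeR adjusted p = 0.00441 and 0.00263). With single libraries left out the values ran from 2.83 to 3.93 and from 2.87 to 3.98, largest without *WT Phf6,RE9a* replicate 3. *Cebpe* had only 4 to 21 counts in *WT Phf6,RE9a* libraries, and *Csf3r* was spread from 15.7 to 70.7 CPM over the *VC Phf6,RE9a* libraries. *Nfe2*, a factor of erythroid and megakaryocyte cells, rose from 91.6 ± 19.4 to 227 ± 10.8 CPM (SD, n = 3). These rises stood beside the higher granulocyte, monocyte and erythroid marker sums given above, and the part of those cells was not tested.
*Gfi1*, a repressor of myeloid progenitors, fell from 42.4 ± 13.4 to 3.78 ± 1.27 CPM (SD, n = 3, log2 fold change -3.48, edgeR adjusted p = 0.000194). *Gzmb*, the granzyme gene of cytotoxic cells and some mast cells, had 2445 to 11050 counts in *WT Phf6,RE9a* and 6 to 26 counts in *VC Phf6,RE9a* libraries, a log2 fold change of -8.58 with a standard error of 0.85 (edgeR adjusted p = 0.000236), which was -7.57 without *WT Phf6,RE9a* replicate 1. T cell markers, 6 of 6 read, reached a summed 1.57 CPM at most without Cre and 8.80 CPM with it, and NK cell markers, 4 of 4 read, reached at most 0.242 and 1.59 CPM. Of these markers 1 T cell gene and 0 NK cell genes had enough counts to be tested. The T cell gene, *Lck*, was higher with Vav1-Cre (log2 fold change 3.25, edgeR adjusted p = 0.000562). Summed mast cell and basophil markers were high in the same libraries as *Gzmb*, *Gfi1*, *Runx2* and *Runx3*, and the part of such cells in these results was not tested.

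**Figure D4:**
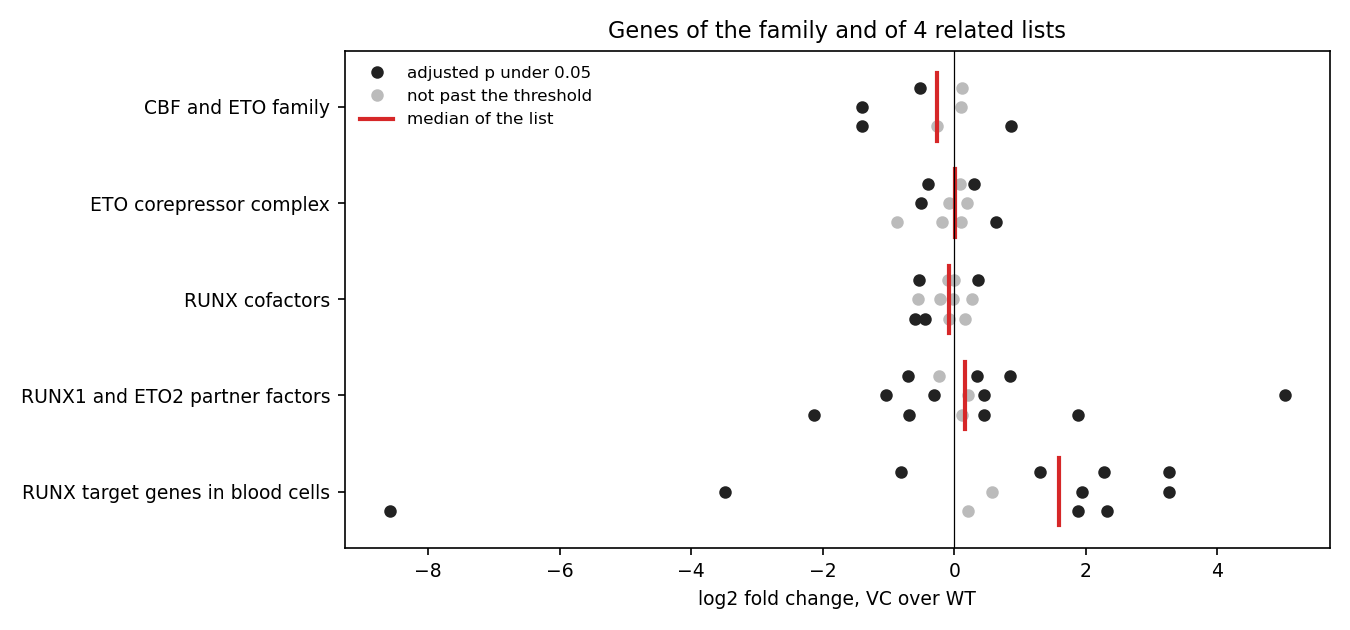
Log2 fold change, *VC Phf6,RE9a* relative to *WT Phf6,RE9a*, of each tested gene of the family and of 4 related lists, 1 point per gene, with the median of each list as a red line. Medians run from -0.27 in the family to 1.59 in the RUNX target genes, where *Gzmb* lies at -8.58.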

How the data were processed

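RNA-seq libraries (TruSeq, paired ends) were analysed from the authors' deposited table. It holds read counts per Ensembl gene, deposited without normalization, and FPKM, which the authors computed from those counts, a gene length and a scaled library size. Columns of the authors' own DESeq2 comparison, deposited beside these, hold a p-value, a log2 fold change and a normalized mean signal per gene, and were not used. The submitters' processing notes name Bowtie 0.12.0 and mm8, whereas the coordinates of all 7 members, and of 98.3% of 54409 matched genes, equal those of GENCODE M21 (GRCm38), which is therefore the build given here. The counting tool and strand setting are not given in the sources used here.

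In edgeR 4.0.16 under R 4.3.3, low counts were removed (filterByExpr), TMM scaling was applied and groups were compared by the quasi-likelihood test, and p-values of 14169 genes were adjusted by Benjamini-Hochberg, at a threshold of 0.05. A standard error is the size of the fitted log2 difference over the root of its F value, and confidence intervals (level 0.95) use the t distribution of the fit. Where no read was seen, up to 3 counts are allowed by counting error alone, or 0.204 CPM in the shallowest library. Levels of different genes used FPKM, and shares were compared by exact permutation tests. Profiles were compared as log2 CPM with a prior count of 2. The tests were run on simulated counts first. Alternatives were DESeq2 1.42.0, RLE factors, leaving the count filter out, a minimum of 10 counts per library, limma 3.58.1 on log2(FPKM + 1) and log2(FPKM + 0.1), and each library left out. The length of the principal transcript was added after the values were seen.

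Members and lists were chosen with earlier results of these data known. Named genes are *Phf6*, the 7 members, in each related list the 4 largest changes past the threshold and the 2 highest levels, and the 3 profiles nearest to the member with the largest change. Beside these, *Hdac3*, *Csf2*, *Il3*, *Spi1*, *Mpo*, *Elane*, *Prtn3*, *Cebpa* and the marker genes given by name were named outside this rule, after their values were seen. Promoter sequences are from RefSeq and coding sequences from GENCODE. Figures were drawn with matplotlib 3.10.9.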

Additional observations from a re-analysis of the deposited data

How the results depend on the processing

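*Runx2*, *Runx3*, *Cbfb* and *Runx1t1* kept their direction and passed the threshold in all 6 settings that used every library, and *Runx2*, *Runx3* and *Cbfb* also with each library left out. *Runx1* kept its direction throughout. It passed with DESeq2 (log2 fold change -0.28, adjusted p = 0.0107), limma on log2(FPKM + 1) (-0.27, adjusted p = 0.0319) and limma on log2(FPKM + 0.1) (-0.27, adjusted p = 0.0328), and with single libraries left out it ran from -0.33 to -0.23, passing only without *WT Phf6,RE9a* replicate 3 (adjusted p = 0.0227). With single libraries left out *Runx1t1* ran from 0.63 to 1.02, and the number of members higher from 0 to 1. *Cbfa2t3* ran from -0.059 to 0.23 and the difference of *Cbfb* over the summed RUNX FPKM from -0.0604 to 0.00995, reversed without *WT Phf6,RE9a* replicate 3. The number of corepressor genes called ran from 2 to 5. The cause of these changes was not tested. No paired analysis was possible because the groups share no replicate number. With 3 libraries a group, exact permutation tests cannot give a p under 0.1.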
